A study of Mus musculus with 32 samples.

Results

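The subject here is a knockdown of glycerol kinase in cultured mouse cells. The study's labels call the gene Gyk, and the array annotation calls it Gk. The members are the 8 arrays whose titles name the Gyk experiment in culture, out of 32 arrays in the series. They form 4 Gyk knockdown and 4 Gyk control arrays, each hybridised with RNA from 1 sample. The comparison drawn on below uses 4 Pparg knockdown and 4 Pparg control arrays from culture, and the other arrays are not used. By its title, the study asks how Pparg acts on the inducibility of mature brown adipocytes by way of glycerol kinase. All 8 samples carry the strain label C57Bl/6, the cell type label preadipocytes and the treatment label RoomTemperature. Their genotype labels are Gyk KnockDown and Gyk control, and the Pparg arrays are labelled in the same way for Pparg. How the knockdown was made, what the control received and how long the cells were cultured or differentiated are not given in the sources used here. Whether separate cultures gave the 4 samples of each group is not stated either, so the spread that p-values are set against may be technical.

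Glycerol kinase uses ATP to turn glycerol into glycerol phosphate, the backbone onto which fatty acids are placed to make triglyceride. White adipocytes are known for very low activity of the enzyme and release the glycerol of lipolysis, whereas brown adipocytes express it and can recycle glycerol within the cell. Brown adipocytes make heat when noradrenaline starts lipolysis and the freed fatty acids activate the mitochondrial uncoupling protein Ucp1. Pparg, a nuclear receptor, drives adipocyte differentiation and binds DNA with its partner Rxr at paired copies of the half-site AGGTCA.

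The promoters of 4 genes that the results turn on are printed here, from RefSeq on build GRCm38.p6. Gk is the targeted gene, Ucp1 is the defining gene of brown adipocytes, and Nrg4 and Insig1 are genes whose fall kept its call under each of 20 alternative settings. Capitals mark the half-site AGGTCA on either strand (TGACCT on the other) and the E-box CACGTG, which reads the same on both strands.
Gk, chrX:85776770-85777069, minus strand: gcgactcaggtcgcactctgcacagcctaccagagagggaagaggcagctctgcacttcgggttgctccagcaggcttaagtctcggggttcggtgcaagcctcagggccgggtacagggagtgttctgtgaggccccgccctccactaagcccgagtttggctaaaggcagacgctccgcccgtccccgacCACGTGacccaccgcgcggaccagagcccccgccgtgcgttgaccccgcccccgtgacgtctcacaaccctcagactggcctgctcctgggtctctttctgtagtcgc
Ucp1, chr8:83290098-83290397, plus strand: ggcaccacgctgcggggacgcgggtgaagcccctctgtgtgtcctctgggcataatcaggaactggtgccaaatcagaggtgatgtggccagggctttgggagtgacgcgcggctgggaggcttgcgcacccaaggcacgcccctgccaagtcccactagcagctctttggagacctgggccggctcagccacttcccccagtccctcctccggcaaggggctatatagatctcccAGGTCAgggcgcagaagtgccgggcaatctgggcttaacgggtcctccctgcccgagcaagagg
Nrg4, chr9:55283576-55283875, minus strand: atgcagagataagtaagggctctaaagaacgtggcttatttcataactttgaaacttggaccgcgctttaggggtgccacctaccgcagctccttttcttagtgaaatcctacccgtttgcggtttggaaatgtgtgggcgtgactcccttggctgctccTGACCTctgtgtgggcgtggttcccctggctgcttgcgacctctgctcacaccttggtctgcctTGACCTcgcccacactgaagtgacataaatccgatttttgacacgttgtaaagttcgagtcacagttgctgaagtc
Insig1, chr5:28071162-28071461, plus strand: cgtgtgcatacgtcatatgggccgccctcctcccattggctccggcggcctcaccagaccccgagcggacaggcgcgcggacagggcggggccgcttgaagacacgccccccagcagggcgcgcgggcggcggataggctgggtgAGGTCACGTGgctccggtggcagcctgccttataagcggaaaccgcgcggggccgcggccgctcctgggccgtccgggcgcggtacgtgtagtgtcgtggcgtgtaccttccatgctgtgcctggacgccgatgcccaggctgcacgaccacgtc

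The Gk window held 1 E-box and 0 half-sites. The Ucp1 window held 1 half-site, the Nrg4 window held 2, and in the Insig1 window 1 half-site overlapped 1 E-box. Of the 32851 promoter windows in the RefSeq table, 16.3% held the half-site and 7.15% held the E-box. Among the 21 direct Pparg targets measured below, 15 had a window in the table and 4 of these (26.7%) held the half-site, against 15.2% of the 9729 tested genes with a window. These matches describe letters in these windows.

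The label preadipocytes was set against marker genes. The 9 adipocyte markers, among them Adipoq, Fabp4 and Plin1, were each well above background on all 8 arrays. Their summed level ran from 1072 to 1475 times the array's 75th percentile of intensity on the knockdown arrays, against 1035 to 1309 times on the control arrays. Such a sum is weighted to the brightest markers. By mean log2 level each of the 9 was lower in knockdown, with a median change of −0.35. Of the 9, Retn and Lep passed the limma test used below. Of 15 preadipocyte and fibroblast markers, 8 were well above background on all 8 arrays and 6 on no array, with a summed level of 7.31 to 9.02 times the 75th percentile in knockdown, against 6.76 to 8.88 times in control. Levels of different probes are not set against each other here. Matrix genes such as Col1a2, at 6.44 to 6.80 on the log2 scale in knockdown and 6.65 to 6.82 in control, were also well above the 75th percentile. In RNA from whole cultures, fewer cells of a type and less RNA per cell cannot be told apart.

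Signal strength differed between the arrays. The 75th percentile of intensity was 424, 365, 141 and 246 on knockdown arrays 1 to 4, against 356 to 418 on the control arrays, so knockdown arrays 3 and 4 were the dimmest. Between 45.7% and 52.5% of probes were well above background on the knockdown arrays, against 50.1% to 52.2% on the control arrays. The median SD per gene was 0.301 log2 units in knockdown and 0.138 in control. Arrays 1 and 2 of each group lay on 1 slide, called the first slide below, and arrays 3 and 4 on another, the second slide. The slide means of a gene differed at least 2-fold for 10.9% of genes in knockdown, against 2.93% in control. Levels below are log2 intensities relative to the 75th percentile of the array, and changes are knockdown minus control on that scale with the standard error (SE) of the limma fit.

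Of 12218 genes tested, 568 rose (4.65%) and 502 fell (4.11%) at a limma adjusted p under 0.05, together 1070 (8.76%). These shares are the background for the counts of every gene list below. Among them, 130 rose and 118 fell at least 2-fold. The median change over all tested genes was 0.02, and the median size of the called changes was 0.76. The change had the same sign on both slides for 1069 of the 1070, and Ucp1, with no value on the first slide of the controls, was the remaining one. For 252 called genes a second probe passed the filter, and it moved in the same direction for 219 (86.9%), against 60.0% of the genes that were not called. The 4 knockdown values lay above all 4 control values for 11.5% of tested genes and below them for 10.9%.

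The number of calls depended on single arrays. It was 399, 333, 298 and 347 without control arrays 1, 2, 3 and 4 in turn, and 627 without knockdown array 4. Without both dim knockdown arrays it was 1322, and 752 of these were among the 1070. When arrays were scaled to their median instead of their 75th percentile, 36.6% of the calls were rises in place of 53.1%, and the median over all genes moved to −0.09.

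**Figure D1:**
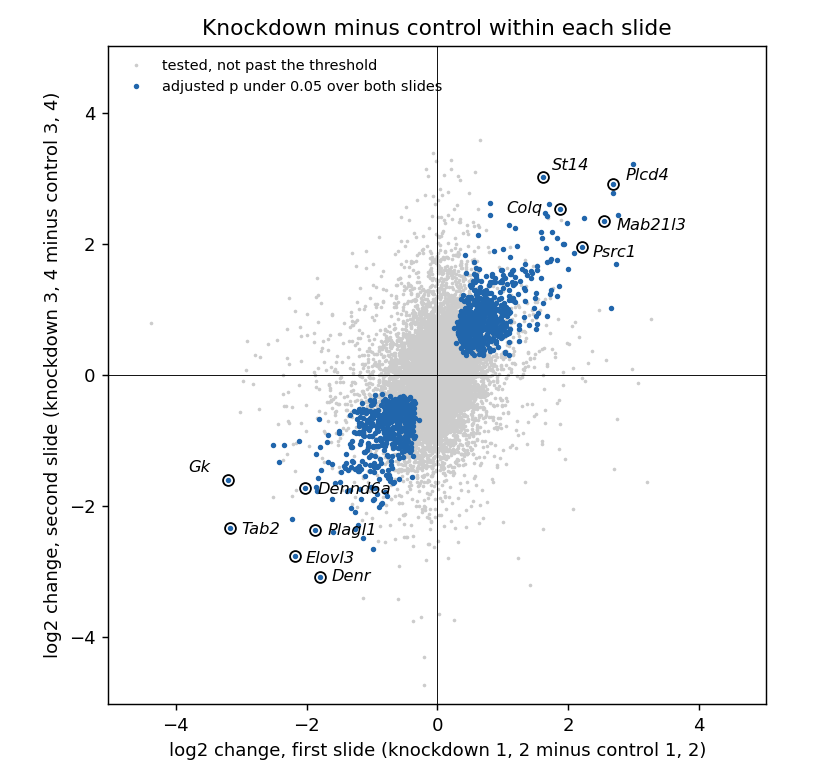
Change on the second slide against change on the first slide, both as log2 knockdown minus control, with 1 point per tested gene. Grey points did not pass the threshold, blue points did, and circles mark named genes such as Gk at −3.19 on the first and −1.60 on the second slide. The blue points lie in the quadrants where both slides have the same sign, which follows largely from their selection on the same arrays.

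Gk, the targeted gene, was low on each knockdown array. Its log2 level was −2.61, −3.0, −1.4 and −1.19 on knockdown arrays 1 to 4, against 0.40, 0.38, 0.22 and 0.39 on control arrays 1 to 4. The groups were far apart, and knockdown arrays 3 and 4 read higher than arrays 1 and 2. Arrays 3 and 4 are the dim arrays of the second slide, and whether more transcript was left there was not tested. Gk fell 5.26-fold (log2 −2.40, SE 0.39, limma adjusted p = 0.0118), by 3.19 on the first slide and by 1.60 on the second. An exact two-sided permutation test of 4 against 4 arrays gave p = 0.0286, the smallest it can give. Pparg stood at 6.04, 6.15, 6.22 and 6.33 in knockdown, against 6.49, 6.32, 6.32 and 6.31 in control. Knockdown array 4 lay within the range of the controls, and the difference of −0.18 (SE 0.11, limma adjusted p = 0.319) did not pass the threshold.

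**Figure D2:**
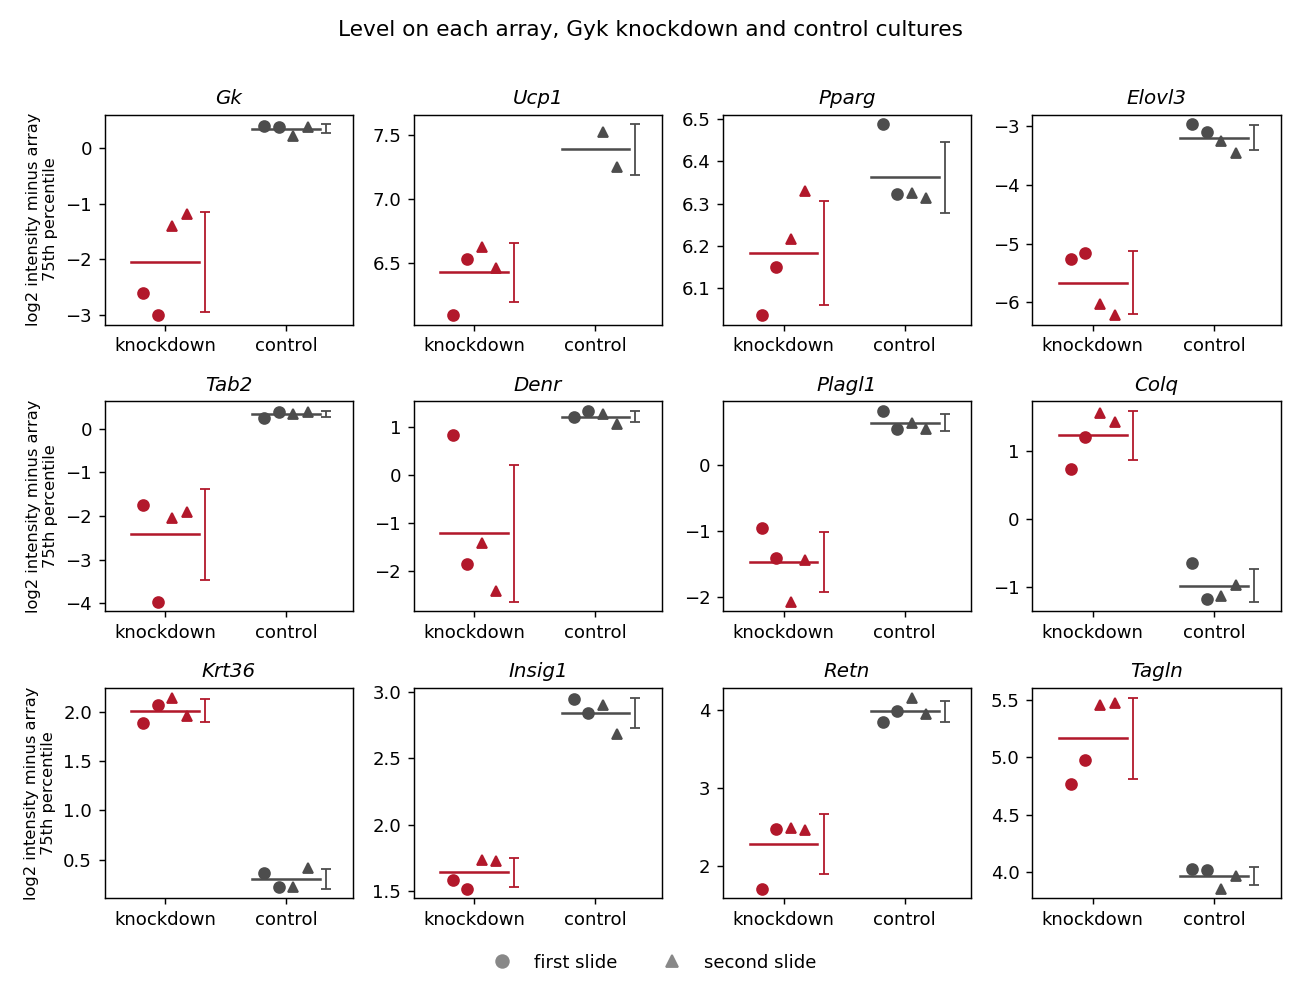
Log2 level of 12 genes on each array, relative to the array's 75th percentile, with knockdown at the left and control at the right of each panel. Circles are arrays of the first slide, triangles those of the second, lines group means and bars 1 SD (n = 4 arrays, and n = 2 for Ucp1 in control). Gk, Tab2, Plagl1, Insig1 and Retn lie lower on all 4 knockdown arrays than on any control array, and Colq, Krt36 and Tagln higher.

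Genes of brown adipocytes and heat production were lower in knockdown. Of 22 such genes 18 were measured. Among these, 7 fell, 1 rose and the median change was −0.53, against 0.02 over all genes tested. Elovl3, the brown fat elongase of very long fatty acids, had levels of −5.27, −5.15, −6.03 and −6.21 in knockdown, against −2.97, −3.10, −3.25 and −3.47 in control. It was well above background on all 4 control arrays and on no knockdown array, so its fall is given as at least 2.62-fold (limma adjusted p = 0.00227). It passed the filter through its control arrays. A bound sets the mean of the brighter group against the mean, over the dim arrays, of the lowest signal well above background or of the probe's own signal where that was higher.

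Cox8b, a subunit of cytochrome oxidase typical of brown fat and muscle, had levels of 5.01, 5.15, 5.63 and 5.21 in knockdown, against 6.20, 6.36, 6.30 and 6.29 in control. Its groups did not overlap, and it fell on both slides (log2 −1.04, SE 0.15, limma adjusted p = 0.00666). Cidea, a lipid droplet protein of brown adipocytes, stood at 7.07, 7.31, 7.65 and 7.61 in knockdown, against 8.51, 8.43, 7.95 and 8.42 in control, and fell by 0.91 on the log2 scale. Cpn2 (−1.61), Pank1 (−1.2), which starts coenzyme A synthesis, and Dio2 (−0.63), which activates thyroid hormone, also fell. The homeobox gene Lhx8 rose by 0.43. Ppargc1a, a coactivator that drives mitochondrial genes, differed by −0.28 and Prdm16, a regulator of brown fat identity, by 0.14, and neither passed the threshold.

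The call for Ucp1 rested on which spots were used. Its level was 6.10, 6.53, 6.63 and 6.46 in knockdown, against 7.53 and 7.25 on control arrays 3 and 4, while the spots of control arrays 1 and 2 carried an outlier mark and were dropped. On these 6 arrays the groups did not overlap and Ucp1 fell 1.94-fold (log2 −0.96, SE 0.20, limma adjusted p = 0.0375). With the marked spots kept, the change was −0.23 (limma adjusted p = 0.726). An exact two-sided permutation test of 4 against 2 arrays gave p = 0.0667, the smallest it can give. The call held in 8 of 18 alternatives, with limma adjusted p between 0.0205 and 0.726.

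The brown fat count was 2, 2, 4 and 2 falls without control arrays 1, 2, 3 and 4, and 8 without both dim knockdown arrays. The direction of the list did not turn: its median was −0.64 with median scaling and −0.63 without the dim arrays. Normexp background correction left 2 falls and a median of −0.42.

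**Figure D3:**
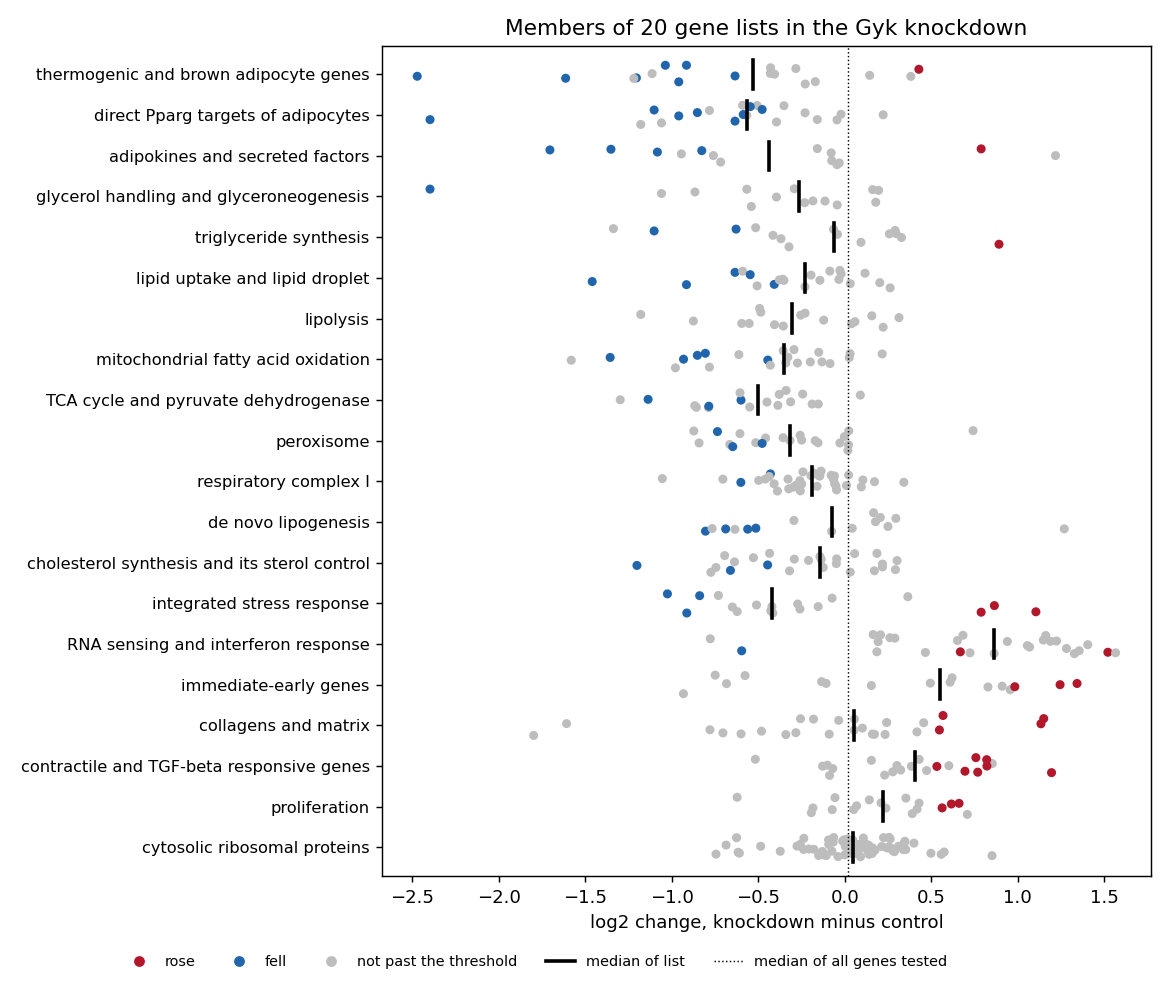
Log2 change, knockdown minus control, of every measured member of 20 gene lists, with 1 dot per gene and a bar at the median of each list. The dotted line marks the median of all 12218 tested genes. Brown fat genes (median −0.53), direct Pparg targets (−0.57) and the TCA cycle (−0.50) lie to the left of it, and interferon (0.86), immediate-early (0.55) and contractile genes (0.41) to the right.

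Genes known as direct targets of Pparg in adipocytes were mostly lower, although the level of Pparg itself did not pass the test. Of 22 such genes 21 were measured. Of these 8 fell, 20 had a negative estimate and the median was −0.57. Both counts include Gk, the targeted gene, whose fall was set by the design. They also include Ucp1, whose call rested on the dropped spots described above. Besides Gk and Ucp1, the falls included Agpat2 (−1.10), which makes phosphatidic acid, Pdk4 (−0.85), which restrains pyruvate dehydrogenase, Acsl1 (−0.63, and −0.24 for a second probe), which activates fatty acids, Plin5 (−0.55), which ties lipid droplets to mitochondria, and Pex11a (−0.48), which divides peroxisomes. Pdk4 stood at 3.61, 3.71, 3.13 and 3.57 in knockdown, against 4.31, 4.34, 4.32 and 4.45 in control, with no overlap. The count was 2, 3, 2 and 2 falls without control arrays 1, 2, 3 and 4, and 9 without both dim knockdown arrays.

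Some abundant targets differed little from control. Fabp4, the fatty acid carrier of adipocytes, had levels of 9.15, 8.94, 9.63 and 9.29 in knockdown, against 9.30, 9.14, 9.35 and 9.30 in control, a difference of −0.02 (SE 0.16). Its knockdown values lay on either side of the controls. Adipoq, which encodes adiponectin, differed by −0.04 (SE 0.12), with overlapping groups and control array 3 dropped as an outlier spot.

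Other genes that handle glycerol and triglyceride gave few calls. Of 15 genes of glycerol handling and glyceroneogenesis 14 were measured. Gk, whose fall was set by the design, was the 1 that fell, with a list median of −0.26. The count of falls ran from 0 to 3 over the settings, and was 3 with the slide as a block and without both dim knockdown arrays. Gpd1, which makes glycerol phosphate from the glycolytic intermediate, stood at 7.90, 7.95, 8.28 and 7.70 in knockdown, against 8.35, 8.33, 8.38 and 8.34 in control. All 4 knockdown values were lower, but the difference of −0.39 (SE 0.13, limma adjusted p = 0.107) did not pass. Gpd1 passed in 4 of 20 alternatives. Pck1, the committed step of glyceroneogenesis, differed by −1.06 (limma adjusted p = 0.0615) and Aqp7, the glycerol channel of adipocytes, by −0.57 (0.0744).

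In triglyceride synthesis, 15 of 16 genes were measured, Agpat2 and Dgat1 fell and Agpat4 rose, with a median of −0.06. Dgat1, which adds the last fatty acid, had 3.74, 3.77, 3.17 and 3.44 in knockdown, against 4.11, 4.34, 4.10 and 4.09 in control, and fell by 0.63. Agpat4, another acyltransferase, had 2.17, 2.23, 2.32 and 2.47 in knockdown, against 1.58, 1.38, 1.26 and 1.4 in control, and rose by 0.89 (SE 0.12, limma adjusted p = 0.00508). Neither pair of groups overlapped. The count of falls was 0 without any 1 control array and with normexp background correction, and 3 without both dim knockdown arrays. The call held in 6 of 20 alternatives for Dgat1 and in 19 for Agpat4.

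None of the 16 measured lipolysis genes passed the limma test, and their median change was −0.30. The lipase genes Pnpla2 and Lipe differed by −1.18 and −0.55, with 1 low knockdown array each: Pnpla2 stood at 1.28 on knockdown array 4, against 3.15 to 3.65 on the others, and Lipe at −0.64 on array 3, against 0.72 to 0.89. Without both dim knockdown arrays 2 lipolysis genes fell and 1 rose. Of 21 measured genes of lipid uptake and droplets, 5 fell and 0 rose, with a median of −0.23. They were Fabp3 (−1.46), a fatty acid carrier of muscle and brown fat, Cidea, Acsl1, Plin5 and Fabp5 (−0.41). The droplet count was 0, 1, 1 and 0 falls without control arrays 1, 2, 3 and 4, and 3 without knockdown array 2.

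Secreted factors of adipocytes held some of the firmest falls. Of 18 genes 14 were measured, 4 fell, 1 rose and the median was −0.44. Retn, which encodes resistin, had 1.71, 2.47, 2.48 and 2.45 in knockdown, against 3.84, 3.99, 4.15 and 3.94 in control. The groups lay more than 1 log2 unit apart, and Retn fell by 1.70 (SE 0.19, limma adjusted p = 0.00266). Nrg4, a factor released by brown fat, had 0.44, 0.52, 0.27 and 0.46 in knockdown, against 1.68, 1.80, 1.89 and 1.73 in control. Its values were tight within each group, and it fell by 1.35 (SE 0.11, limma adjusted p = 0.000576), while a second Nrg4 probe, well above background on all 8 arrays, moved by −0.57. Rbp4, the retinol carrier of blood, fell by 1.08 and Lep, which encodes leptin, by 0.83, while Gdf15, a stress-induced hormone, rose by 0.79. Retn, Nrg4 and Rbp4 kept their call in all 20 alternatives.

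Among 23 measured adipogenic and metabolic transcription factors, 1 rose and 2 fell, with a median of −0.15. Of all tested genes, 4.65% rose and 4.11% fell. Klf5, which acts early in adipocyte differentiation, stood at −2.85, −2.68, −2.50 and −2.45 in knockdown, against −3.88, −3.98, −3.37 and −4.38 in control, and rose by 1.28. Ppara, a receptor that drives fatty acid oxidation, fell by 0.85 on 7 arrays with knockdown array 1 dropped as an outlier spot, and Rxrg, a partner of nuclear receptors, fell by 0.78. In all, 3 further probes were measured for these 2 receptors, and all 3 had negative estimates, between −1.69 and −0.16. The Ppara probe at −0.16 did not agree between slides. It stood at 1.62, 1.67, 3.06 and 2.68 on knockdown arrays 1 to 4, against 2.26 to 2.60 on the control arrays. The Ppara call held in 8 of 19 alternatives.

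Genes of mitochondrial fuel use were lower. All 22 genes of fatty acid oxidation were measured, 5 fell, 0 rose and the median was −0.35. Acadl, the long-chain dehydrogenase of the pathway, stood at 2.96, 2.76, 1.70 and 2.40 in knockdown, against 3.98, 3.70, 3.82 and 3.72 in control, with knockdown array 3 the lowest, and fell by 1.35. Slc25a20, the carnitine carrier (−0.93), Pdk4, Etfdh, which passes electrons to ubiquinone (−0.80), and Acaa2, the last thiolase (−0.44), also fell. The count was 1 without each control array in turn, 3 without knockdown array 4 and 8 without both dim knockdown arrays.

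All 18 genes of the TCA cycle and pyruvate dehydrogenase were measured, 3 fell, 0 rose, 17 had a negative estimate and the median was −0.50. Idh3a, a catalytic subunit of isocitrate dehydrogenase, had 5.57, 5.52, 4.59 and 5.12 in knockdown, against 6.33, 6.26, 6.43 and 6.33 in control, and fell by 1.14. Sucla2, a subunit of succinyl-CoA ligase, had 5.26, 5.40, 5.05 and 5.13 in knockdown, against 6.05, 5.96, 6.05 and 5.93 in control, and fell by 0.78 (SE 0.11, limma adjusted p = 0.00683). Neither gene overlapped between the groups. The list's median over genes was −0.36, −0.48, −0.50 and −0.49 on knockdown arrays 1 to 4 relative to the control mean, against −0.04 to 0.05 on the control arrays. The count was 1 without each control array in turn, and 6 without both dim knockdown arrays.

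Subunits of the respiratory chain moved less. Of 36 measured subunits of complex I, 2 fell (Ndufa10 and Ndufc2), a share near the 4.11% of all tested genes that fell, with a median of −0.19. Of 14 in complexes II and III, 3 fell (Cyc1, Sdha and Uqcrc2) with a median of −0.19, and of 13 in complex IV, 2 fell (Cox8b and Cox6a2) with a median of −0.15. Of 17 subunits of ATP synthase, Atp5pb fell, and the median was −0.13. Cyc1, which carries electrons to cytochrome c, had 7.30, 7.70, 7.15 and 7.46 in knockdown, against 8.15, 8.30, 8.17 and 8.13 in control, a fall of 0.79 without overlap. The medians were more negative on the first slide than on the second: −0.34 and −0.08 for complex I, −0.49 and 0.01 for complex IV. Without both dim knockdown arrays, 6 complex I genes fell. The dim arrays lie on the second slide, and their part in this was not tested.

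**Figure D4:**
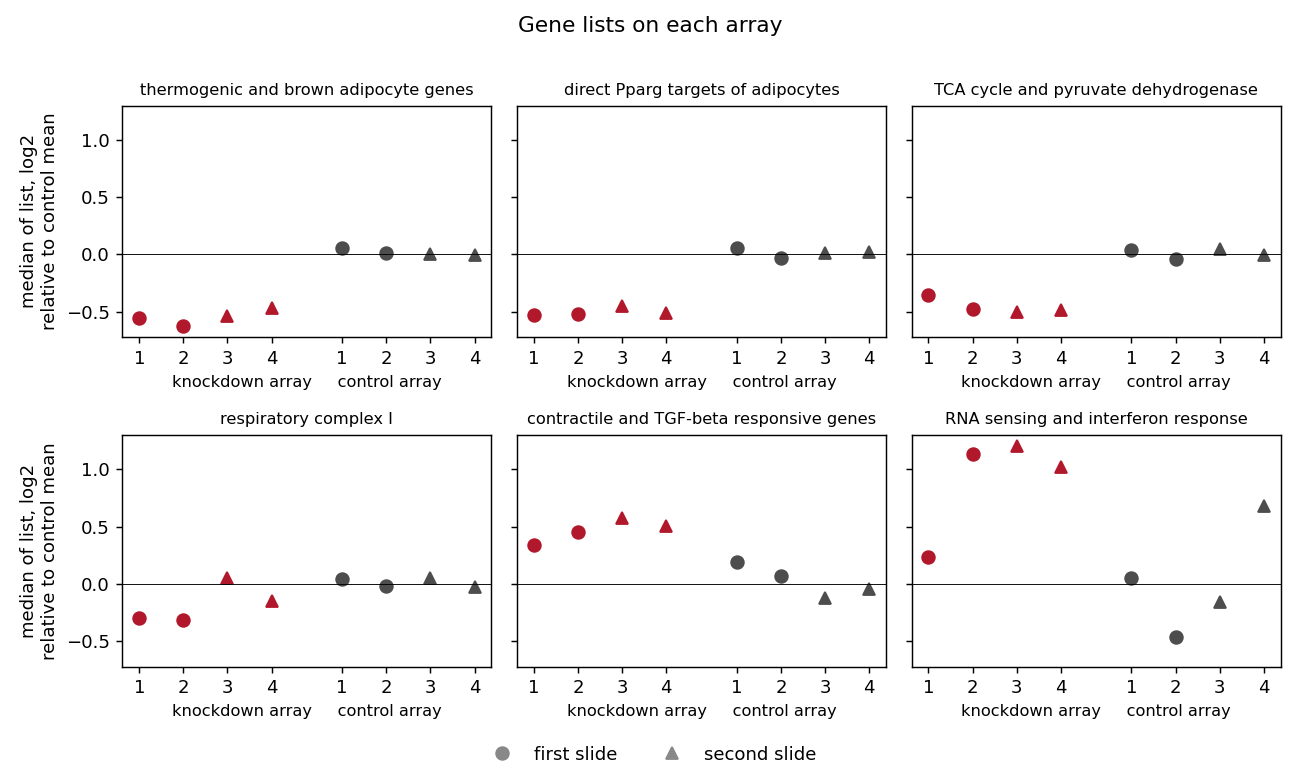
Median over the measured genes of 6 lists on each array, as log2 difference from the mean of the 4 control arrays, with knockdown at the left and control at the right of each panel. TCA cycle and brown fat medians lie below 0 on all 4 knockdown arrays. The interferon median is 0.23 on knockdown array 1 and 1.02 to 1.21 on the others, against −0.46 to 0.68 on the control arrays.

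Mitochondrial ribosomal proteins gave 1 fall (Mrpl20) among 74 measured, with a median of −0.11. Among 75 cytosolic ribosomal proteins 0 passed the limma test, with a median of 0.05 that became −0.07 with median scaling. Of 37 proteasome subunits 2 rose and 0 fell: Psmb8 (0.73), a subunit of the immunoproteasome, and Psmd10 (0.38), whose dimmer second probe differed by 0.0048. That share is near the 4.65% of all tested genes that rose, and both calls were lost with median scaling.

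Peroxisomal and amino acid pathways had a few falls each. Of 21 measured peroxisome genes, Ech1 (−0.73), Ehhadh (−0.65) and Pex11a fell, and the median was −0.32. Of 18 measured genes of branched-chain amino acid breakdown 3 fell, and the median was −0.23. Aldh6a1, which acts in valine breakdown, stood at 3.04, 3.18, 2.98 and 3.26 in knockdown, against 4.20, 4.0, 4.15 and 4.25 in control. It fell by 1.03 without overlap and kept its call in all 20 alternatives, and its second probe moved by −0.87. Auh, which acts in leucine breakdown, and Ppm1k, the phosphatase that activates the branched-chain dehydrogenase, fell by 0.64 and 0.68. Leaving out control arrays 1, 2, 3 and 4 gave 0, 1, 0 and 0 falls in the peroxisome list and 1 each time in the amino acid list.

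Lipid synthesis genes gave several falls and no rise in the limma fit. All 15 genes of de novo lipogenesis were measured, 4 fell and the median was −0.07. Scd2, a fatty acid desaturase, had 7.46, 7.58, 7.12 and 7.27 in knockdown, against 8.10, 8.18, 8.24 and 8.15 in control, and fell by 0.80 without overlap. Fads1, another desaturase (−0.69), Fasn, the fatty acid synthase (−0.56), and Thrsp, a lipogenic nuclear protein (−0.51), fell as well. Of 25 measured genes of cholesterol synthesis and its control 3 fell, with a median of −0.14. Insig1, which holds the sterol sensor in the endoplasmic reticulum and is itself induced by that pathway, had 1.58, 1.52, 1.73 and 1.73 in knockdown, against 2.94, 2.84, 2.90 and 2.68 in control. It fell by 1.2 (SE 0.11, limma adjusted p = 0.0014) and kept its call in all 20 alternatives. Idi1 (−0.66) and Tm7sf2 (−0.45), both enzymes of the pathway, fell. In each of these lists 1 fall was counted without any 1 control array, and the lipogenesis list had 2 falls without knockdown array 4.

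In glucose uptake and glycolysis, 22 genes were measured, Slc2a4 and Aldoc fell and the median was −0.14. Slc2a4, the insulin-responsive glucose transporter, had 5.87, 5.98, 5.85 and 6.01 in knockdown, against 6.47, 6.45, 6.43 and 6.57 in control, and fell by 0.55. Of 8 measured genes of creatine and calcium cycling, Alpl, a phosphatase, rose by 0.91.

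Stress genes moved in both directions. Of 18 measured genes of the integrated stress response 3 rose and 3 fell, with a median of −0.42. Atf3, a stress-induced transcription factor, had 1.21, 1.32, 0.32 and 0.64 in knockdown, against −0.24, −0.25, −0.17 and −0.29 in control, and rose by 1.10, with higher values on the first slide. Sesn2, which restrains growth signalling, and Gdf15 rose by 0.86 and 0.79. Nupr1, a stress-induced nuclear protein, had 3.15, 3.22, 3.13 and 3.18 in knockdown, against 4.31, 4.29, 4.07 and 4.10 in control, and fell by 1.02 (SE 0.10, limma adjusted p = 0.00189). Ddit3 and Trib3, which act downstream of Atf4, fell by 0.91 and 0.84, and Atf4 itself differed by −0.26 and did not pass. The count of rises was 1 without any 1 control array.

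In the unfolded protein response, 16 genes were measured, Sdf2l1, which helps folding in the endoplasmic reticulum, rose by 0.84 and Edem1, which marks misfolded proteins for removal, fell by 0.70. In translation initiation, 1 of 18 measured genes fell, Denr, which is described with the largest falls below. Of 24 measured genes of NF-kB signalling, Tab2 fell and none rose in the limma fit. Both lists stand beside the 4.11% of all tested genes that fell.

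Genes of RNA sensing and the interferon response were mostly higher, but the arrays of each group disagreed. Of 34 genes 27 were measured. The median was 0.86 and 25 had a positive estimate, yet 2 rose and 1 fell. The list's median over genes was 0.23, 1.14, 1.21 and 1.02 on knockdown arrays 1 to 4, against 0.05, −0.46, −0.16 and 0.68 on control arrays 1 to 4, so control array 4 exceeded knockdown array 1. Ifih1, a sensor of double-stranded RNA, stood at −0.86, 0.02, −0.17 and −0.03 in knockdown, against −2.47, −2.05, −1.78 and −0.84 in control. It rose by 1.52 (SE 0.35, limma adjusted p = 0.0364), with knockdown array 1 and control array 4 nearly level. Ifi35 rose by 0.67 and Mavs, the mitochondrial adaptor of RNA sensing, fell by 0.60. Isg15, a ubiquitin-like protein induced by interferon, stood at 4.98, 6.04, 5.80 and 5.91 in knockdown, against 4.59, 3.92, 4.23 and 5.39 in control, and the difference of 1.15 did not pass. The number of rises was 6 without knockdown array 1, 4 without control array 4 and 0 without any other single array, and it was 0 without both dim knockdown arrays and with median scaling.

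Of 16 measured immediate-early genes, which answer growth and stress signals within minutes, 3 rose, 0 fell and 6 had a negative estimate. The median was 0.55, and it was 0.30 without both dim knockdown arrays. Egr1 had −0.01, −0.44, −0.43 and −0.17 in knockdown, against −1.84, −1.61, −1.47 and −1.51 in control. Its groups lay about 1 log2 unit apart, and it rose by 1.34 (SE 0.14, limma adjusted p = 0.00229), a call kept in all 20 alternatives. Egr2 rose by 1.24 and Klf4 by 0.98, while Fos differed by 0.91 and did not pass.

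Of the contractile and TGF-beta responsive genes, 7 of 22 rose. All 22 were measured, 0 fell, 5 had a negative estimate and the median was 0.41. Tagln, an actin-binding protein of smooth muscle and myofibroblasts, had 4.77, 4.97, 5.45 and 5.47 in knockdown, against 4.03, 4.03, 3.86 and 3.97 in control. Every knockdown value was higher, those of the second slide most, and Tagln rose by 1.2 (SE 0.18, limma adjusted p = 0.00794). Tgfb3, Zyx, Acta2, Myl9, Actg2 and Ccn2 rose by 0.53 to 0.82. These genes encode a growth factor, an adhesion protein, muscle actins, a myosin light chain and a matrix-associated factor. The count was 5, 3, 3 and 3 without control arrays 1, 2, 3 and 4, 4 without knockdown array 3 or array 4, and 5 without both dim arrays. It was 3 with normexp background correction.

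Of 25 measured collagen and matrix genes 4 rose and 0 fell, and the median of 0.05 became −0.06 with median scaling. Thbs1, which activates latent TGF-beta, had 3.95, 3.99, 3.67 and 3.85 in knockdown, against 2.94, 2.71, 2.55 and 2.66 in control. It rose by 1.15 (SE 0.13, limma adjusted p = 0.00244) without overlap and kept its call in all 20 alternatives. Lox, which crosslinks collagen, rose by 1.13, with 0.36 for a second probe, Col5a1 by 0.57 and Fn1, fibronectin, by 0.55. The count of rises was 1 without any 1 control array, 2 without knockdown array 3 or 4, 2 with median scaling and 6 without both dim knockdown arrays.

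Of 18 measured proliferation genes, Birc5 (0.66), Ccnb2 (0.62) and Ccna2 (0.56), all of mitosis, rose and 0 fell, with a median of 0.22. With median scaling 0 of them passed and the median was 0.11, and without control arrays 1, 2, 3 and 4 the count was 0, 0, 1 and 0. Of 14 measured clock genes, Nr1d2 (−0.79) and Dbp (−0.57), both rhythmic outputs, and Clock (−0.50) fell, with a median of −0.26. The clock count was 1, 1, 1 and 2 without control arrays 1, 2, 3 and 4, and 1 without knockdown array 2, 3 or 4.

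The 12 largest rises were mostly genes of low level. For 1700007K13Rik, Robo3, St14 and Ltb4r1 no control array was well above background, so their rises are bounds of at least 5.75-fold, 5.80-fold, 4.0-fold and 3.11-fold. The Plcd4 probe was likewise well above background on no control array, with a fitted change of 2.81, but a dimmer Plcd4 probe was so on 3 control and 3 knockdown arrays and differed by 1.51, so no bound is given. Plcd4 is a phospholipase C, Robo3 an axon guidance receptor, St14 a membrane protease and Ltb4r1 a leukotriene receptor. The probes of Inka2, Hba-a2 and Gstp3 were well above background on 1 control array, and a second Inka2 probe, well above background on all 8 arrays, differed by 2.17. The remaining 4 were measured on all 8 arrays: Mab21l3, Colq, Got1l1 and Psrc1.

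Mab21l3 stood at −1.29, −0.85, −1.0 and −0.84 in knockdown, against −3.39, −3.86, −3.28 and −3.29 in control, and rose by 2.46 (SE 0.17, limma adjusted p = 0.000388). Colq, which anchors acetylcholinesterase in the matrix, stood at 0.74, 1.2, 1.56 and 1.43 in knockdown, against −0.65, −1.17, −1.13 and −0.96 in control, and rose by 2.21 (SE 0.20). Psrc1, a microtubule protein of mitosis, stood at 1.11, 0.42, 1.13 and 0.05 in knockdown, against −1.33, −1.56, −1.27 and −1.48 in control, and rose by 2.08. All 3 had gaps between the groups of more than 1 log2 unit and kept their call in all 20 alternatives.

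The largest falls on the fitted scale were Tab2, Elovl3, Denr and Gk, whose order was not tested. Tab2, an adaptor that links the kinase Tak1 to inflammatory receptors, had −1.75, −3.97, −2.06 and −1.91 in knockdown, against 0.24, 0.39, 0.34 and 0.38 in control. Every knockdown array was low, array 2 most, and Tab2 fell by 2.76 (SE 0.45, limma adjusted p = 0.012). On the Pparg arrays the Tab2 probe differed between slides in both groups. The Pparg controls read −0.01 and 0.21 on arrays 1 and 2, against −1.78 and −1.42 on arrays 3 and 4, which lay on another slide. Denr, which helps ribosomes restart after short reading frames, had 0.83, −1.86, −1.41 and −2.42 in knockdown, against 1.21, 1.34, 1.28 and 1.07 in control. Knockdown array 1 was close to the controls, and Denr fell by 2.44 (SE 0.62, limma adjusted p = 0.0475), a call that held in 7 of 20 alternatives. A second, dimmer Denr probe differed by −0.82.

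Plagl1, an imprinted zinc finger factor, had −0.95, −1.4, −2.08 and −1.44 in knockdown, against 0.83, 0.56, 0.65 and 0.56 in control, and fell by 2.12. One of its other probes moved by −2.05, and the remaining 2, both of low level, by 0.20 and −0.04. Dennd6a, which acts in endosome traffic, fell by 1.88 (SE 0.13), whereas its second, dimmer probe differed by 0.15. Acox2, a peroxisomal oxidase of branched lipids and bile acid precursors, fell by 1.81 (SE 0.12). Trappc2, Dkc1, Xkrx, Akr1b7 and Olig1 fell by 1.82 to 2.21 on the fitted scale, each not well above background on at least 1 knockdown array. In the Pparg controls, Trappc2 read −3.13 and −3.21 on 1 slide, against −5.28 and −5.23 on the other. Dkc1 likewise read −2.83 and −2.50, against −5.68 and −5.30. For Olig1, which was not well above background on any knockdown array, the fall is at least 1.64-fold.

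Markers of other cell types were in part well above background on no array. Of 13 macrophage markers on the array 7 were well above background on no array, including Lyz2, Mrc1 and C1qa, while Csf1r, Cd14 and Itgam were so on all 8 arrays. The summed level was 1.64 to 5.28 times the 75th percentile in knockdown, against 2.87 to 3.24 times in control. Among 6 tested, 3 had positive and 3 negative estimates. Cd14 rose by 0.41, a call that held in 7 of 20 alternatives. Endothelial markers had 1 of 9 genes, Kdr, on all 8 arrays, with Cdh5 and Tek on none, and sums of 1.46 to 9.23 times in knockdown, against 1.61 to 2.93 times in control. Lymphocyte markers had 3 of 8 on all arrays, with Cd3d and Cd8a on none, and sums of 1.22 to 2.86 times, against 0.997 to 1.41 times in control.

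The markers of smooth muscle and pericytes had 2 positive and 2 negative estimates among 4 tested. Their sum was 8.43 to 9.97 times the 75th percentile in knockdown, against 13.2 to 14.8 times in control, and Cspg4 (−0.87) and Des (−0.62) fell while Notch3 (0.44) rose. Skeletal muscle markers summed to 31.2 to 49.3 times in knockdown, against 58.7 to 76.1 times in control, Mb, which encodes myoglobin, fell by 0.88, and 10 of 14, Myod1 and Ckm among them, were well above background on no array. Nerve and Schwann cell markers summed to 3.19 to 4.02 times in knockdown, against 4.72 to 5.34 times in control. Their 1 fall was S100b, a calcium-binding protein that adipocytes also express, with −0.48, −0.34, −0.19 and −0.14 in knockdown, against 1.33, 1.18, 1.25 and 1.10 in control (log2 −1.50, SE 0.12, limma adjusted p = 0.000576). Erythroid markers stayed low, with sums of 0.294 to 0.388 times in knockdown, against 0.146 to 0.197 times in control. Hba-a2 and Hba-a1, 2 near-identical globin genes whose probes may share signal, rose. The call held in 17 of 18 alternatives for Hba-a2 and in 4 of 20 for Hba-a1. The part of these markers in the other changes was not tested.

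The Gyk experiment was then set beside the Pparg knockdown, which has its own controls, its own slides and its own scan day. Experiment, slides and scan day therefore cannot be told apart in a difference between them. The Pparg arrays were also brighter, with a 75th percentile of intensity of 589 to 806, against 141 to 424 on the Gyk arrays. The Pparg knockdown changed far more genes: of 12844 tested, 18.1% rose and 16.0% fell. It lowered Gk as well, to −0.63, −0.70, −0.30 and −0.61, against 0.77, 0.85, 0.99 and 0.93 in the Pparg controls (log2 −1.44). Genes called in both comparisons numbered 593, which is 55.4% of the Gyk calls and 13.6% of the Pparg calls, and 511 of them moved in the same direction. The effects themselves differed, by a limma interaction test over 16 arrays, for 1629 genes (13.3%), with the Gyk effect higher for 840 and lower for 789. For Gk the difference of −0.95 did not pass (limma adjusted p = 0.169).

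The direct Pparg targets differed in size between the knockdowns. In the Pparg comparison 19 of 21 fell, with a median of −1.46, against the median of −0.57 under Gyk knockdown. The Gyk effect was higher, meaning a smaller fall, for 14 of the 21 in the interaction test and lower for 0, where 6.88% of all tested genes were higher. Adipoq changed by −0.04 under Gyk and by −1.46 under Pparg knockdown, Fabp4 by −0.02 and −1.15, and Plin5 by −0.55 and −2.44. Mgll, the last lipase of triglyceride breakdown, differed by 0.22 under Gyk knockdown and fell by 1.98 under Pparg knockdown. Of 9 adipocyte markers the Gyk effect was higher for 7, with medians of −0.35 and −1.74.

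Some lists showed no such difference. For the TCA cycle the median was −0.50 under Gyk and −0.81 under Pparg knockdown, and 0 of 18 genes passed the limma interaction test. The same count was 0 of 36 for complex I. A test that misses its threshold does not show that the effects are alike. In the interferon list 18 of 25 genes rose under Pparg knockdown, where 18.1% of all tested genes rose. The list's median was 0.71 there, beside 0.86 under Gyk knockdown, and Ifit2 was the 1 gene with a difference.

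**Figure D5:**
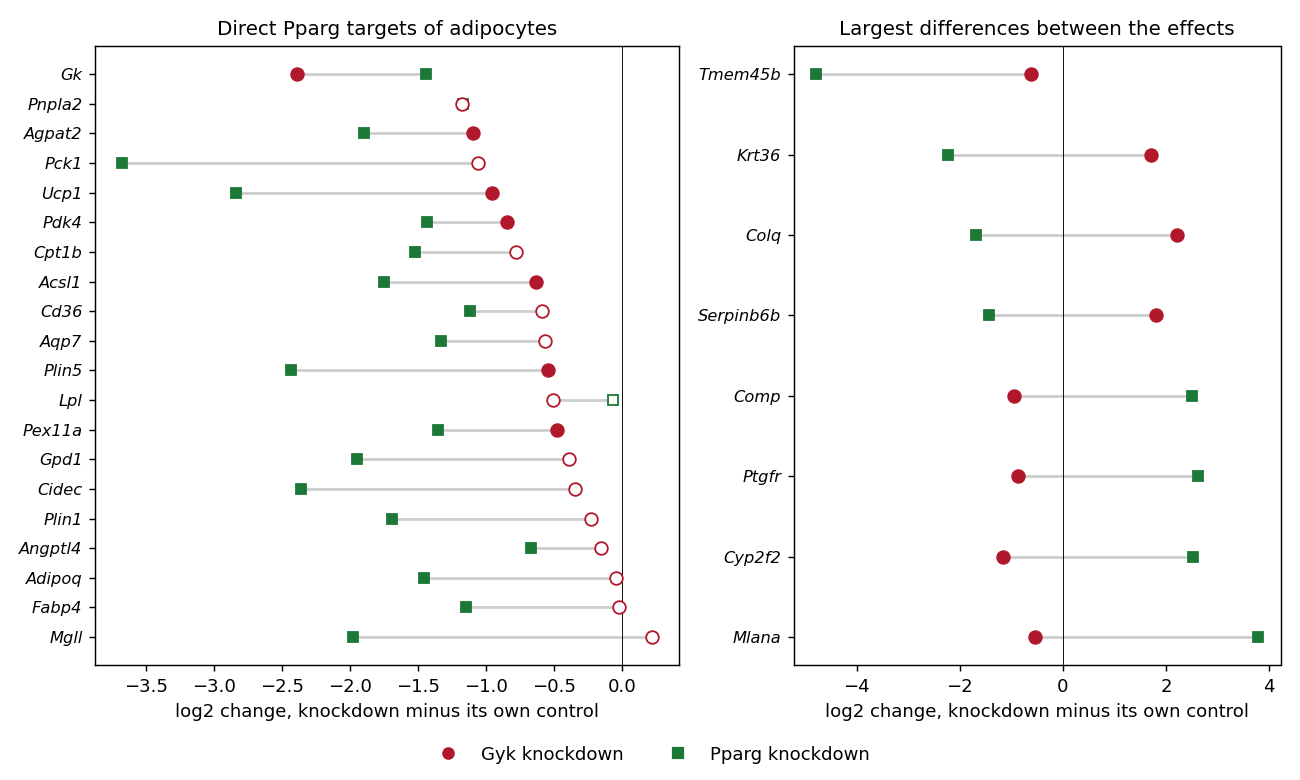
Log2 change under Gyk knockdown and under Pparg knockdown for 20 of the 21 measured direct Pparg targets (left) and for the 8 genes with the largest differences among those called for both Gyk and the interaction (right). Filled symbols passed the threshold in their own comparison and open symbols did not. Most targets lie further below 0 under Pparg knockdown, with medians of −0.57 and −1.46 over all 21.

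At the extremes of the interaction, some genes moved in opposite directions. Krt36, a hair keratin, stood at 1.88 to 2.14 in Gyk knockdown, against 0.22 to 0.41 in Gyk controls, and at −2.21 to −1.57 in Pparg knockdown, against 0.21 to 0.53 in Pparg controls. It rose by 1.70 under Gyk and fell by 2.24 under Pparg knockdown, a difference of 3.94. Colq, which rose by 2.21 under Gyk knockdown, fell by 1.68 under Pparg knockdown, and Serpinb6b, a protease inhibitor, changed by 1.81 and −1.44. Tmem45b, a membrane protein, fell in both, by 0.62 and by 4.79.

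In the other direction, Mlana, a melanosome protein, fell by 0.54 under Gyk knockdown and rose by 3.79 under Pparg knockdown. Cyp2f2, a cytochrome P450, changed by −1.16 and 2.52, Comp, a cartilage matrix protein, by −0.95 and 2.51, and Ptgfr, the prostaglandin F receptor, by −0.86 and 2.62. The Gyk call held in 7 of 20 alternatives for Mlana, in 19 for Cyp2f2, in 12 for Comp and in 10 of 15 for Ptgfr. Ptgfr was not well above background on any Gyk knockdown array, so its fall there is at least 1.12-fold. Of the 421 genes called in both the Gyk comparison and the interaction, 192 had opposite signs under the 2 knockdowns. These 421 were selected for a difference between the effects, and the Pparg change need not have passed its own test. Of the 593 genes called in both the Gyk and the Pparg comparison, 82 moved in opposite directions.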

How the data were processed

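RNA of 8 culture samples, 4 Gyk knockdown and 4 Gyk control, was measured on 1-colour Agilent arrays. The deposited scanner output holds fluorescence intensity per spot, made with Agilent Feature Extraction 10.7.3.1, per the submitters' processing notes. The authors' deposited intensity used here is the processed signal, already background-subtracted per the file headers. The log2 levels were computed from the deposited intensity: log2 minus each array's 75th percentile, with control spots and outlier-marked spots left out. Of 39429 probes, 27234 had a gene symbol, for 20659 genes. A probe entered if well above background on at least 4 of the 8 arrays, and each gene was read from its brightest probe over the 32 arrays.

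Linear models and moderated tests came from limma 3.58.1, run under R 4.3.3, two-sided, with Benjamini-Hochberg adjustment across every tested gene and a threshold of 0.05. Only the 8 arrays entered, and the interaction used 16. The scripts were tested on simulated data. The number of arrays limits the precision.

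Gk, Pparg and Ucp1 were always named. Further named genes were the 12 largest rises and 12 largest falls without overlap and of 1 sign on both slides, up to 6 called members of each list, and 4 genes at each end of the interaction. Other list members, with values below the threshold, were named after their values were seen. The members and lists were chosen with earlier results of these data known. Sequences and their coordinates are RefSeq's on GRCm38.p6. A few list members are counted but not reported here by name. No per-sample column was left unmapped (0). Alternatives covered background correction, scaling, the filter on dim probes, probe choice, slide and replicate blocks, array weights, outlier spots and leaving out arrays.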

Additional observations from a re-analysis of the deposited data

Results flagged for a closer look

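Among 293 groups of 4 values tested, 15 held 1 array far from the other 3, close to the number that chance gives (about 1 in 20). In the knockdown group these were Tab2 on array 2 (−3.97, others −2.06 to −1.75), Retn on array 1 (1.71, others 2.45 to 2.48) and Ifi35 on array 1 (2.55, others 3.02 to 3.07). Serpinb6b stood apart on knockdown array 3 (−2.85, others −2.20 to −2.12). On knockdown array 4 it was Dkc1 (−2.74, others −4.47 to −4.22), Fabp3 (2.73, others 4.07 to 4.18) and Gdf15 (2.10, others 2.56 to 2.57).

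In the control group, array 1 stood apart for Pparg (6.49, others 6.31 to 6.33), Trappc2 (−4.07, others −3.47 to −3.42) and Tgfb3 (0.081, others −0.23 to −0.18). Array 2 did so for Dgat1 (4.34, others 4.09 to 4.11). Array 3 did so for Gk (0.22, others 0.38 to 0.40), Pank1 (−1.89, others −1.30 to −1.18), Cidea (7.95, others 8.42 to 8.51) and Vwf (−3.78, others −5.09 to −4.97).

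Among Gk, Pparg, Ucp1, the largest rises and falls and the ends of the interaction, the Gyk knockdown effect differed from the Pparg knockdown effect for 24 genes by the limma interaction test. The log2 difference, Gyk minus Pparg, was 1.88 for Ucp1, 1.73 for Pparg, 4.17 for Tmem45b, 3.94 for Krt36, 3.89 for Colq and 3.25 for Serpinb6b. It was −4.33 for Mlana, −3.68 for Cyp2f2, −3.48 for Ptgfr and −3.46 for Comp. Among the largest Gyk rises it was 2.11 for 1700007K13Rik, 1.84 for Plcd4, 1.45 for Robo3, 1.15 for Inka2, 1.60 for Mab21l3 and 1.80 for St14. It was 1.63 for Hba-a2, 2.42 for Got1l1, 1.95 for Gstp3 and 0.93 for Psrc1. The probes of 1700007K13Rik, Plcd4, Robo3 and St14 were well above background on no Gyk control array, and that of Ptgfr on no Gyk knockdown array, so these differences are fitted values and no measured sizes. The Pparg comparison by itself did not test 1700007K13Rik, Plcd4 or Gstp3. Among the largest Gyk falls it was −2.86 for Tab2, −2.41 for Plagl1, −1.59 for Dennd6a and −1.84 for Acox2. The Tab2 probe differed between the slides of the Pparg arrays, as given above, and the part of this was not tested.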

How the results depend on the processing

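The 1070 calls became 259 with normexp background correction, of which 255 were among the 1070, and 447 with no filter on dim probes, where the median change over all genes was 0.25. Leaving out single arrays gave 298 to 1383 calls. The first slide alone, 2 against 2 arrays and chosen after seeing the data, gave 0 calls by limma, 2262 genes at an unadjusted p under 0.05, and −3.19 for Gk (limma adjusted p = 0.0648). The fit with a replicate block gave 105 calls, 0 of them contractile genes or direct Pparg targets, and −2.40 for Gk (limma adjusted p = 0.053). Whether same-numbered samples form pairs is not stated in the sources used here. Same-numbered arrays deviated with correlations of 0.115, 0.0517, 0.06 and 0.108. Knockdown arrays 1, 2 and 4 correlated best with the same-numbered control array, and knockdown array 3 with control array 4. These values do not decide whether the samples were paired. Genes whose effect differed from that of the Pparg knockdown numbered 904 with normexp and 2978 with the slide as a block, against 1629, and 1332 to 2035 without single arrays. Ptgfr (0.016) and Ppm1k (0.0013) changed sign with normexp, and the cause was not tested.

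The other settings, among them quantile normalization (1071), array weights (1180), slide block (1348) and median scaling (773), gave counts within 1.5 times of 1070. Of 122 named genes called, 15 kept their call in all 20 settings: Mab21l3, Colq, Psrc1, Plagl1, Dennd6a, Krt36, Retn, Nrg4, Rbp4, Aldh6a1, Insig1, Nupr1, Egr1, Thbs1 and S100b. Normexp used the median spot and background signals. The change in Gk ran from −3.15 to −1.66 over 20 settings. Dim signal limits genes near background on knockdown arrays 3 and 4.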
